A study of Mus musculus with 3 samples.

Results

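The RNA processing family genes described here were the 100 protein-coding genes, of 22367 in the GENCODE M1 annotation of the mouse NCBI37/mm9 genome, whose symbols start with Srsf, Snrp, Hnrnp, Prpf, Sf3 or Ddx. They comprised 11 Srsf, 12 Snrp, 18 Hnrnp, 13 Prpf, 8 Sf3 and 38 Ddx genes. Binding of RARα and RXRα near their transcription start sites (TSS) was taken from ChIP-seq of whole livers of male wild type C57BL/6 mice aged 3 months. There were 3 libraries, namely 1 precipitated with an anti-RXRα antibody, 1 of input chromatin and 1 precipitated with a Santa Cruz RARα antibody. With 1 library per group there were no replicates, so every value describes these libraries, no comparison was tested, and the intervals given are 95% Wilson intervals that cover counting error only. The RXRα and input tracks each held 10 M reads, a nearly equal level that is not taken here as sequencing depth. The RARα peak list does not give the depth of its library. The paper reports more uniquely mapped reads for RXRα than its track holds, and more for RARα than for RXRα. The part of this difference in depth in the classes was not tested.

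RARα is a receptor for retinoic acid that classically binds DNA as a heterodimer with RXRα, and RXRα is also the partner of other nuclear receptors that are abundant in liver. The members code for the machinery that cuts introns out of nuclear transcripts and packages, exports and unwinds RNA. Snrp and Sf3 genes code for proteins of the small nuclear ribonucleoproteins (snRNPs), Prpf genes for further splicing factors, Srsf genes for the serine and arginine rich (SR) proteins that mark exons, Hnrnp genes for abundant RNA packaging proteins, and most Ddx genes for DEAD-box RNA helicases. Nearly all cell types use most of these genes.

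A gene was counted as RARα-bound when the summit of a RARα peak with a score above 20 lay within 10 kb of its TSS. An RXRα region was a run of 32 bp bins in which the RXRα signal, the number of extended reads over the bin, was at least 20 times the input, with input set to no less than its genome mean of 0.603 reads per bin. Members were called co-localized when a RARα peak and an RXRα region overlapped by at least 25% of the narrower, apart when both were near the TSS without such overlap, and bound by RARα alone when no RXRα region was there. The RARα score of the peak caller and the RXRα ratio are different measures, so their thresholds are not matched in stringency. In whole liver, strong binding in few cells and weak binding in many cannot be told apart.

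The short sequences that follow show what lay under both kinds of site. The first set is from RXRα regions near members and is given because AGGTCA, the core sequence that nuclear receptors recognize, lay in 26 of the 82 regions (31.7%, against 30% of 15094 regions near all genes), searched on both strands within 100 bp of the region's midpoint. Capitals mark this core, and each sequence reads 5′ to 3′ on the strand named.
Ddx31, chr2:28695099-28695126, plus strand: caacggtagacAGGTCAggggttgggtc
Prpf19, chr19:10971466-10971493, plus strand: cattgtcctggAGGTCAgtgacagctgt
Hnrnpu, chr1:180274439-180274466, plus strand: tgaacccacagAGGTCAacctacctttg
Srsf6, chr2:162765630-162765657, plus strand: agcttggtgaaAGGTCAcatgttcatgc
Srsf3, chr17:29169552-29169579, plus strand: gtgatctggtcAGGTCAtgtggcagagc
Sf3b3, chr8:113370879-113370906, plus strand: ggcagccccaaAGGTCAccgcgccaacg

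The second set is from the summits of the strongest RARα peaks of members bound by RARα alone. It is given to show the motifs named next, though they also lie under other RARα summits. The ETS motif CCGGAAG lay within 100 bp of 10 of these 47 summits (21.3%) and the YY1 motif AAGATGGCG at 4 (8.51%), while AGGTCA lay at 1 (2.13%). Over all genes bound by RARα alone these shares were 15.9%, 4.3% and 6.7%. The ETS motif also lay at 21.4% of the co-localized members and 36.8% of those with both apart. Capitals mark the ETS motif in the first 4 sequences and the YY1 motif in the last pair.
Srsf5, chr12:82046453-82046479, plus strand: tggcaccgccCCGGAAGtgacgccagg
Sf3b2, chr19:5295452-5295478, minus strand: gattacgcaaCCGGAAGtttctggaag
Snrpb, chr2:130005100-130005126, minus strand: cgaggccggaCCGGAAGtagcttcact
Ddx54, chr5:121063109-121063135, minus strand: gctcttagacCCGGAAGagggcggggc
Prpf38b, chr3:108714632-108714658, plus strand: cctgggaacAAGATGGCGgggccagcg
Ddx47, chr6:134961648-134961674, plus strand: cccacgagcAAGATGGCGgcggacgag

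RARα was near the TSS of 94 of the 100 members (94%, 87.5 to 97.2), whereas 52.2% of all protein-coding genes were RARα-bound. An RXRα region was near 48 members (48%, 38.5 to 57.7), against 39.8% of all genes. Prpf8 is not among the 48, because the midpoint of its region lay just beyond 10 kb, but is co-localized through a RARα peak inside this limit. The members fell into 47 bound by RARα alone, 28 co-localized, 19 with both receptors apart, 2 with an RXRα region only and 4 with neither. Over all protein-coding genes 19.6% were bound by RARα alone and 23.5% were co-localized. Among RARα-bound genes, RARα alone took 50% of the members (40.1 to 59.9) and 37.5% of all genes, and co-localization took 29.8% of the members (21.5 to 39.7) and 45.0% of all genes. Both receptors apart took 20.2% of the members and 17.5% of all genes. The members thus lay above the background for RARα peaks and, among RARα-bound genes, below it for co-localization in these libraries.

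**Figure D1:**
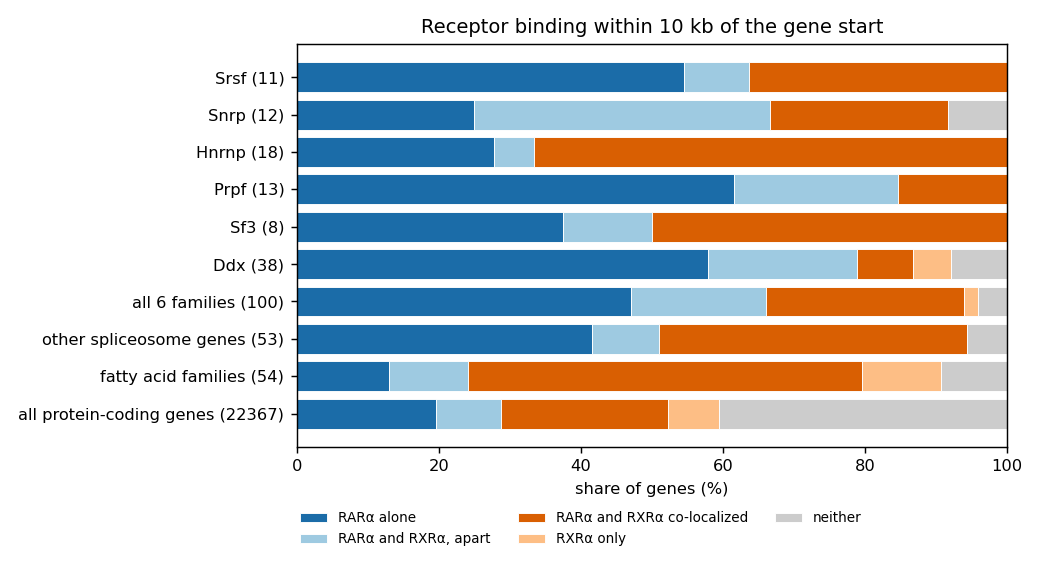
Share of genes (%) in each of 5 binding classes within 10 kb of the TSS, for the 6 subfamilies, all 100 members, other spliceosome genes, fatty acid families and all protein-coding genes, with the number of genes in brackets. The Hnrnp bar is mostly co-localized, the Ddx bar mostly RARα alone, and nearly every member has a RARα peak.

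The subfamilies differed in how RARα and RXRα were combined. Of the RARα-bound Ddx genes, 22 of 33 were bound by RARα alone (66.7%, 49.6 to 80.2) and 3 were co-localized (9.09%, 3.14 to 23.6). Hnrnp genes showed the opposite arrangement, with 5 of 18 bound by RARα alone (27.8%, 12.5 to 50.9) and 12 co-localized (66.7%, 43.7 to 83.7). The intervals cover counting error only and are no test between these 2 subfamilies. Their co-localized shares lay closer with a score above 50, at 14.3% in Ddx and 30.8% in Hnrnp. At 5 times input they were 93.9% and 94.4%. With the genome mean as the only input they were 57.6% and 72.2%, against 69.4% of all RARα-bound genes. Without a score threshold they were 23.7% and 66.7%. The low Ddx share thus depended on dividing by the input of each bin. The order within Hnrnp depended on the setting, with 50% bound by RARα alone and 43.8% co-localized within 1 kb, 61.1% and 38.9% at 30 times input, and 30.8% each with a score above 50. Prpf genes were nearer to Ddx, with 8 of 13 bound by RARα alone and 2 co-localized, and Sf3 genes nearer to Hnrnp, with 3 of 8 and 4 of 8. Of 11 Srsf genes, 6 were bound by RARα alone, 4 were co-localized and 1 had both apart. Of the Snrp genes, 3 were bound by RARα alone, 3 were co-localized and 5 had both apart, and the first count moved between 0 and 9 under other settings. Without Ddx genes, the remaining RARα-bound members were 41.0% bound by RARα alone and 41.0% co-localized, nearer to the 37.5% and 45.0% of all RARα-bound genes than the full set was. Without Hnrnp genes the shares were 55.3% and 21.1%, farther from all genes.

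The score of a member's strongest RARα peak ran from 21 to 244 with a median of 53, against a median of 48 over all RARα-bound genes. A score above 100 was reached by 15 members (16% of those RARα-bound, against 9.31% of all RARα-bound genes), of which 5 were bound by RARα alone and 8 were co-localized. Median scores per subfamily were 99 for Srsf, 79 for Hnrnp, 57.5 for Sf3, and 45 each for Snrp, Prpf and Ddx. A high RARα score was therefore also found in members without an RXRα region at 20 times input. RXRα enrichment, the mean RXRα signal across the strongest RARα peak divided by the mean input there, with that input again set to no less than 0.603 reads per bin, had a median of 3.44 over members, with quartiles of 2.25 and 5.03, against a median of 4.33 over all RARα-bound genes. Score and enrichment were only weakly related, with Spearman's rho of 0.203 over the 94 members and 0.139 over all RARα-bound genes, a description across genes that share the same 3 libraries.

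**Figure D2:**
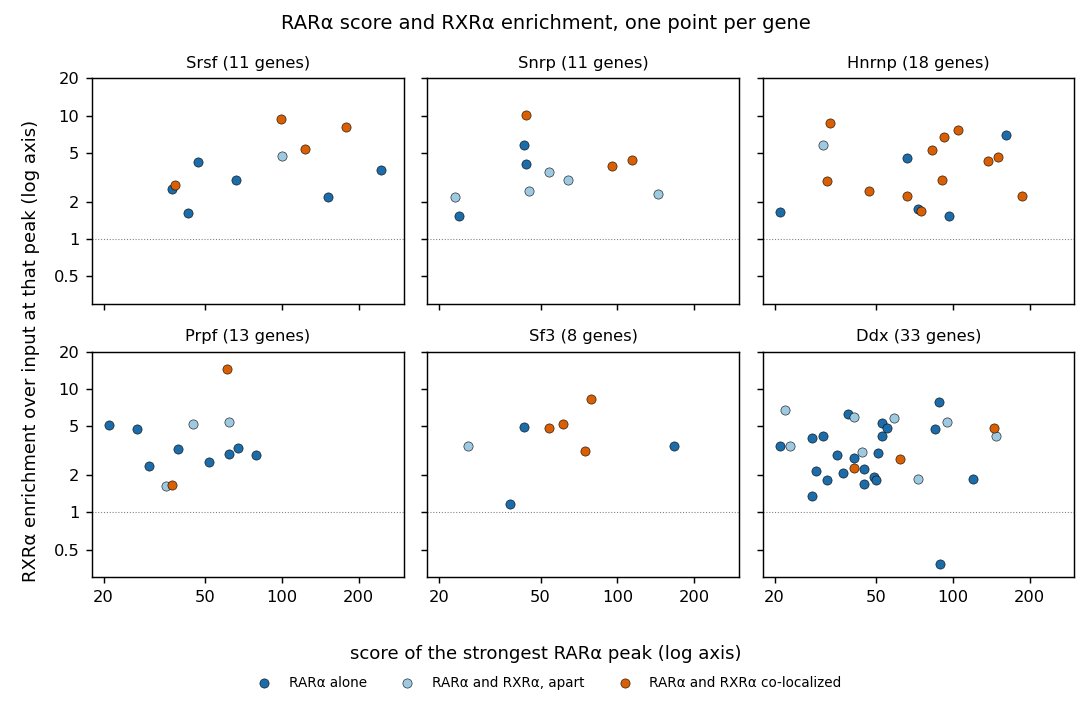
Score of the strongest RARα peak (x, log axis) against RXRα enrichment over input across that peak (y, log axis, no unit) for the 94 RARα-bound members, in 1 panel per subfamily and coloured by class. High scores occur in all 3 classes, and only Ddx10 lies below the dotted line at an enrichment of 1.

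SR proteins recognize exonic enhancers and recruit the splicing machinery, and their genes had the highest median RARα score of the 6 subfamilies. Srsf7, which also acts in mRNA export, held the highest score of all members, 244, at chr17:80606301-80607270, with the summit 6 bp upstream of its TSS. Mean RXRα signal across that peak was 5.59 reads per bin against 1.53 in input, and the gene was bound by RARα alone. Srsf5 had a score of 152 at chr12:82046151-82046841, with 8.68 reads of RXRα and 3.95 of input per bin. Its strongest RXRα bin reached 19.0 times input, just under the threshold, so that its class hung on a small difference. Srsf1, a founding SR protein, was bound by RARα alone with a score of 66, as were Srsf9 (43), Srsf11 (47) and Srsf12 (37).

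The co-localized SR genes were Srsf2, Srsf3, Srsf4 and Srsf10. Srsf3, the smallest SR protein, had its only RARα peak, with a score of 99, 3 bp from the TSS at chr17:29169221-29169970, directly over its RXRα region. The signal there was 6.67 reads per bin for RXRα and 0.708 for input, an enrichment of 9.41, and the core of its sequence above lay 52 bp upstream of the TSS. Srsf2 (score 179) and Srsf4 (123) were also co-localized at the strongest peak, 33 bp downstream and 217 bp upstream of the TSS. Srsf6 kept the receptors apart. Its RARα peak with a score of 100 was 46 bp downstream of the TSS, in the untranslated region, while its strongest RXRα region lay 8352 bp downstream at chr2:162765537-162765696, where 29 reads in a bin without input gave a ratio of 48.1.

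Snrp genes code mainly for the Sm ring that holds the spliceosomal small nuclear RNAs and for proteins specific to the U1 and U2 snRNPs. Of 8 Sm core genes, 2 were bound by RARα alone (Snrpb and Snrpf), 2 had both apart (Snrpe and Snrpd2), 3 were co-localized (Snrpd1, Snrpd3 and Snrpg) and Snrpn had neither. Snrpe had the highest score of the subfamily, 145, in a peak 127 bp upstream of its TSS at chr1:135506511-135507350 with 5.78 reads of RXRα and 2.48 of input per bin. Its RXRα region lay far away, 8316 bp upstream at chr1:135515137-135515232, with 59 reads in the strongest bin over 1 in input. Snrpg showed the highest RXRα ratio of the subfamily, 69.7, from 42 reads over none in input, in a region 5374 bp upstream. That region lay under a second RARα peak of score 33, whose enrichment of 13.8 (17.5 against 1.26 reads per bin) exceeded the 3.95 of the gene's strongest peak, of score 95, at the TSS.

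Snrpd3 held 6 RARα peaks, the most of any member, and 3 of them were co-localized. The highest enrichment among these was 16.2, from 27.4 reads of RXRα against 1.69 of input per bin, at a peak of score 21 that lay 5072 bp upstream. Its strongest peak, of score 114, was nearer to the start of its neighbour 1110038D17Rik. Snrpd1 was co-localized at its strongest peak, with an enrichment of 10.1 from 12.8 against 1.27 reads per bin, but this peak was 7599 bp upstream and nearest to Esco1. In both Sm genes the most RXRα-enriched RARα peak was thus several kb from the gene's own start. Snrpn, an imprinted Sm gene best known from brain, had no listed RARα peak within 10 kb at any score, and its strongest RXRα bin held 2 reads, a ratio of 3.32 that was the lowest of all members. Input was low there too, with a mean of 0.143 reads per bin within 1 kb, the lowest of all members, against a median of 1.46, and its part in the missing signal was not tested.

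The U1 and U2 proteins, which recognize the 5′ splice site and the branch point, split evenly into 4 bound by RARα alone, 4 apart and 4 co-localized. Sf3b1, the U2 subunit that contacts the branch point helix, was bound by RARα alone. Its only RARα peak, of score 167 at chr1:55083801-55084660, had its summit 23 bp upstream of the TSS with 6 reads of RXRα and 1.75 of input per bin. Within the same SF3 complexes Sf3b2 (score 43) and Sf3b5 (38) were bound by RARα alone as well, the latter through a peak 8299 bp downstream of the TSS, and Snrpc of U1 had a score of 44. Sf3a2, Sf3a3, Sf3b3 and Sf3b4 were co-localized within 1 kb of the TSS, with enrichments of 5.15, 8.25, 4.84 and 3.16. The only RARα peak of Sf3a2 was nearest to the start of Plekhj1, and with the nearest gene start only Sf3a2 had an RXRα region only. Sf3a1 had a RARα peak of score 26 at its TSS and its strongest RXRα region 8561 bp upstream at chr11:4051713-4051872, where 31 reads over none in input gave 51.4. The subunits of a complex were thus not all of 1 class.

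Among the tri-snRNP proteins, which bring U4, U5 and U6 to the assembling spliceosome, 4 of 6 were bound by RARα alone (Prpf4, Prpf6, Prpf31 and Ddx23), Prpf3 had both apart and Prpf8 was co-localized. Prpf6, which bridges the snRNPs of this particle, had the highest Prpf score, 79, but the peak at chr2:181335661-181336370 lay 9422 bp downstream in an intron and nearest to Samd10. RXRα there was 7.78 reads per bin against 2.70 in input. The only RARα peak of Prpf31, of score 21, was nearest to the start of Tfpt and held 13.6 against 2.67 reads per bin. With the nearest gene start only, Prpf6 and Prpf31 had neither receptor. Prpf8, the core protein of U5, was co-localized only through a peak of score 25 that lay 9901 bp downstream, at the edge of the window, with 17.6 against 1.36 reads per bin. At the TSS itself Prpf8 had a RARα peak of score 37 with an enrichment of 1.66.

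Of the 8 other Prpf genes, 5 were bound by RARα alone (Prpf38a, Prpf38b, Prpf39, Prpf40b and Prpf4b). Prpf38b scored 67 at chr3:108714161-108715110, with the summit 35 bp downstream of the TSS and 4.58 reads of RXRα against 1.39 of input per bin. Prpf19, the ubiquitin ligase of the complex named after it, had a RARα peak of score 35 at the TSS with an enrichment of 1.63. Its RXRα region lay 1771 bp downstream at chr19:10971425-10971584 and reached 74.7 times input from 45 reads over none, the highest ratio of the subfamily, over the core printed above.

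Hnrnp proteins coat nascent transcripts and influence splice site choice. Counted by gene, this subfamily was the most often co-localized at the main threshold. A gene was co-localized when any of its RARα peaks was. RARα-bound Hnrnp genes had a median of 3 RARα peaks, against 2 in Ddx and over all genes. Counted by peak, the Hnrnp share was 29.8%, below the 41.7% of Sf3 and the 33.1% of peaks near all genes. Hnrnpu, the scaffold attachment factor, combined a RARα peak of score 150 at the TSS with RXRα regions on either side. The region 1128 bp downstream, at chr1:180266689-180266912, reached 86.3 times input from 52 reads over none, and the RARα peak of score 33 above it had an enrichment of 21.4, the highest of all members with the input minimum of 0.603, from 15.5 against 0.727 reads per bin. Hnrnpr followed with 19.1 (11.5 against 0.158 reads per bin, where the input minimum set the divisor) at a peak of score 24 that lay 408 bp downstream. Hnrnpab, with the highest Hnrnp score of 187 at chr11:51419841-51420900, had an enrichment of 2.24 there and of 16.6, also set by the input minimum, at its neighbouring peak of score 39, centred 674 bp downstream. In all 3 genes the RXRα-rich peak was thus a weaker RARα peak beside the one at the TSS.

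Hnrnpl, which binds CA-rich RNA, had an enrichment of 10.5 (14.2 against 1.35 reads per bin) at a peak 2890 bp downstream. Hnrnpul1 had the highest RXRα signal across any strongest RARα peak, 30.1 reads per bin against 3.47 in input, 1606 bp upstream of its TSS. The other co-localized members of the subfamily were Hnrnpa0, Hnrnpa1, Hnrnpa3, Hnrnpc, Hnrnpf, Hnrnph1 and Hnrnph3. Hnrnpc and Hnrnpf entered this class with 13 reads in the strongest bin and no input, the fewest that reach 20 times input, and their enrichments were 2.45 and 2.44. Hnrnpd had both receptors apart.

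The 5 Hnrnp genes bound by RARα alone were Hnrnpa2b1, Hnrnpk, Hnrnpul2, Hnrnpm and Hnrnph2. Hnrnpa2b1, a major packaging protein whose gene starts within 1 kb of the chromatin gene Cbx3 on the opposite strand, scored 162 at chr6:51419511-51420031, with 6.18 reads of RXRα and 0.882 of input per bin. Its enrichment of 7.0 was above the median of 4.5 for the strongest peaks of co-localized members, although its strongest bin reached only 16.6 times input. In only 15 of the 28 co-localized members was the strongest peak itself co-localized. At the most enriched co-localized peak of each of these members the median was 8.18, above that of Hnrnpa2b1. Hnrnpk, a KH domain protein that binds C-rich RNA, scored 97 at chr13:58503611-58504511 with 3.90 against 2.55 reads per bin, in a peak that lay nearer to the start of Rmi1. Hnrnpul2 scored 73 with 3.62 against 2.06 reads per bin, and Hnrnph2 only 21.

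DEAD-box helicases unwind RNA in ribosome assembly, splicing, export, translation and decay. Of 13 helicases of ribosome biogenesis, 7 were bound by RARα alone (Ddx10, Ddx21, Ddx47, Ddx49, Ddx51, Ddx54 and Ddx55), 4 had both apart (Ddx24, Ddx31, Ddx52 and Ddx56) and none was co-localized. None of the 21 RARα peaks near these genes overlapped an RXRα region at the main threshold. Of RARα peaks near all genes, 33.1% were co-localized. At 10 times input Ddx21, Ddx24, Ddx52, Ddx54 and Ddx56 were co-localized. At 5 times input every RARα-bound gene of this list was co-localized, so the absence depended on the threshold. Ddx24 had the highest score of the subfamily, 148, at chr12:104663841-104664510, with 7.33 reads of RXRα and 1.76 of input per bin, and an RXRα region 7731 bp upstream at 40 times input. Ddx31 had the highest RXRα ratio of all members, 94.6, from 57 reads over none at chr2:28694977-28695232. This region lay 822 bp upstream, beside a RARα peak of score 23 that was nearest to the start of Gtf3c4, which begins on the other strand. Ddx10 scored 89 at a peak 6463 bp upstream, at chr9:53062551-53063090, where RXRα fell below input with 1.39 against 3.67 reads per bin, an enrichment of 0.379.

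Of 10 helicases of splicing and mRNA export, 6 were bound by RARα alone, 3 were co-localized and Ddx39b had both apart. Ddx20, the Gemin3 protein of the snRNP assembly complex, scored 88 at chr3:105490041-105490920 and had 11.6 reads of RXRα against 1.48 of input per bin. Its enrichment of 7.81 was the highest of the members bound by RARα alone, with a strongest bin of 15 times input. Ddx17, a coregulator of transcription and splicing, scored 85 at chr15:79376561-79377171 with 2.85 against 0.25 reads per bin, an input below the minimum. Its close relative Ddx5 scored 145 and carried 5 RARα peaks, 4 of them co-localized. Ddx19b was co-localized through a peak 2449 bp upstream with 12.3 against 1.31 reads per bin, and Ddx42 at its TSS with an enrichment of 2.72. Ddx23, Ddx39, Ddx46 and Ddx19a completed the 6.

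The other Ddx genes, not all of which code for RNA helicases, were mostly bound by RARα alone. Ddx3x, which acts in translation initiation, scored 120 at chrX:12857811-12858411 with 3.25 reads of RXRα against 1.75 of input per bin, and its Y-linked relative Ddx3y scored 49 with 3.39 against 1.74. Ddx6, of mRNA decay, had both apart. Ddx41 (score 53), Ddx11 (39), Ddx59 (45), Ddx50 (37) and Ddx26b (28) were bound by RARα alone, and Ddx1 and Ddx28 had both apart. The germ cell helicases Ddx4 (29) and Ddx25 (28) were RARα-bound only through peaks nearest to Slc38a9 and Pus3, and Ddx43 had neither receptor. The viral RNA sensor Ddx58 also had neither, and the antiviral Ddx60 had an RXRα region only, 7476 bp upstream. Ddx27 had an RXRα region 7413 bp upstream at 41.5 times input, and Ddx18 neither. Of the 6 members without a RARα peak above the threshold, 5 were thus helicases and the other was Snrpn.

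Close relatives were not always of the same class. Of 8 pairs described here, Ddx3x and Ddx3y, Ddx21 and Ddx50, and Prpf38a and Prpf38b were both bound by RARα alone. In Ddx5 and Ddx17, Ddx19b and Ddx19a, Hnrnpul1 and Hnrnpul2, and Hnrnph1 and Hnrnph2, the first was co-localized and the second bound by RARα alone. Ddx39b had both apart and Ddx39 was bound by RARα alone. The 2 genes of a pair thus differed in class in 5 of the 8 pairs at the main threshold. At 10 times input Ddx5 and Ddx17, Ddx19b and Ddx19a, Ddx39b and Ddx39, and Hnrnpul1 and Hnrnpul2 were all co-localized. So were Ddx21 and Ddx50, while Hnrnph1 and Hnrnph2 still differed. Ddx3x and Prpf38a were then co-localized, but Ddx3y and Prpf38b had both apart. Which relatives differed thus depended on the RXRα threshold. Members as a whole were also split, with 47 bound by RARα alone, 28 co-localized and 19 apart, so unrelated members often differ too. The pairs were chosen after classes were seen and were not compared with unrelated members.

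The highest RXRα ratio within 10 kb, taken in every member whatever its class, had a median of 19.9 over members and 14.9 over all protein-coding genes. Hnrnp had the highest subfamily median, 27.3, followed by Snrp with 24.9, Sf3 with 24.1, Srsf with 19.9, Prpf with 16.6 and Ddx with 14.9. Every subfamily ranged widely around its median, so these orders describe single libraries and not a tested difference. Members just below the threshold of 20 were Srsf11 and Srsf12 at 19.9, Ddx41 and Srsf5 at 19.0, Ddx59 at 18.3, Ddx11 at 18, and Ddx3y, Hnrnpa2b1, Prpf31 and Prpf6 at 16.6. Just above it were Hnrnpc, Hnrnpd, Hnrnpf and Prpf18 at 21.6, Prpf8 at 23.0, Ddx42, Ddx60, Prpf3, Sf3a2 and Srsf2 at 23.2, Sf3b3, Snrpa and Snrpb2 at 24.9 and Snrpd1 at 25. In bins without input, 12 reads gave 19.9 in Srsf11 and Srsf12. In such bins 13 reads gave 21.6 in Hnrnpc, Hnrnpd, Hnrnpf and Prpf18, so that 1 read divided the former from the latter. For RARα, Ddx51, Hnrnph2 and Prpf31 lay just above the score threshold at 21, followed by Ddx1 at 22, Ddx31 and Snrpb2 at 23 and Snrpf at 24. Ddx18 and Ddx27 lay just below it at 19 and Ddx60 at 18.

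**Figure D3:**
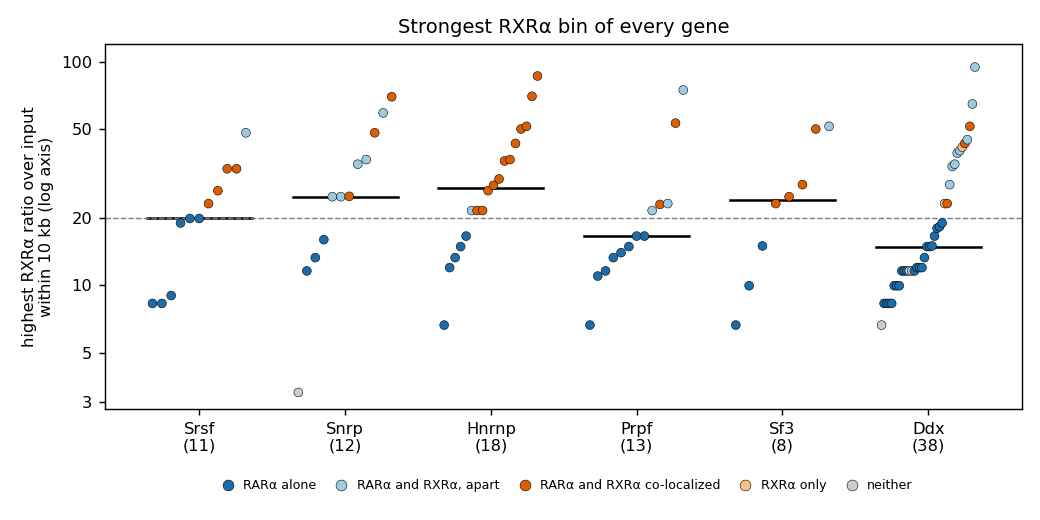
Highest RXRα ratio over input (y, log axis) of all 100 members within 10 kb of the TSS, by subfamily and coloured by class, with the median as a bar and the threshold of 20 dashed. Medians run from 14.9 in Ddx to 27.3 in Hnrnp, and the members bound by RARα alone reach up to 19.9.

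RARα alone did not mean an absence of RXRα signal. In the 47 members of this class the highest RXRα ratio ran from 6.64 to 19.9 with a median of 12, against a median of 13.3 in all genes bound by RARα alone. Their strongest bins held 4 to 19 RXRα reads, and 34 of the 47 had no input read in that bin. Across the strongest RARα peak RXRα was at least 2 times input in 34 of the 47, at least 5 times in 6 and below input in 1, Ddx10. Averaged by distance from the TSS, RXRα in these members rose to 8.79 reads per bin 32 bp upstream of the TSS, while input was at most 2.28. The co-localized members reached 11.6 at the same distance, with input at most 2.18. From 2 to 3 kb away, where the definition of the classes by itself sets them apart, there were 0.713 reads of RXRα against 0.698 of input in members bound by RARα alone, and 1.68 against 1.11 in co-localized members. Hnrnp genes likewise reached 9.22 near the TSS and Ddx genes 9.82, whereas from 2 to 3 kb away RXRα was 1.8 against an input of 1.23 in Hnrnp and 0.796 against 0.683 in Ddx. RXRα over the TSS was thus present on average in both classes and both subfamilies. Input at 2 to 3 kb was lower in members bound by RARα alone and in Ddx genes as well, and its part in the classes was not tested.

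**Figure D4:**
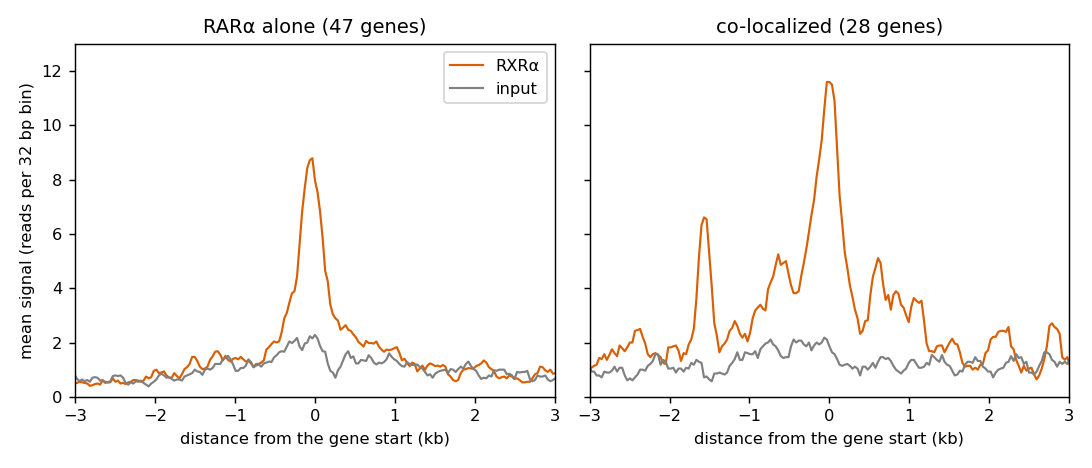
Mean RXRα and input signal (y, reads per 32 bp bin) by distance from the TSS (x, kb) for the 47 members bound by RARα alone and the 28 co-localized members. Both groups have an RXRα summit at the TSS, 8.79 and 11.6 reads per bin, over an input of at most 2.28 and 2.18.

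The class counts accordingly moved with the RXRα threshold. At 10 times input 14 members remained bound by RARα alone (14.9%, against 11.8% of all RARα-bound genes), and 67 were co-localized. These 14 were Ddx25, Ddx26b, Ddx46, Ddx47, Ddx49, Ddx51, Ddx55, Hnrnph2, Prpf39, Sf3b2, Sf3b5, Srsf1, Srsf7 and Srsf9. At 5 times input 0 remained, and 0.891% of all RARα-bound genes did. At 5 times input nearly all RARα-bound genes of Ddx (93.9%) and Hnrnp (94.4%) were co-localized. At 10 times input 60.6% of RARα-bound Ddx genes and 88.9% of Hnrnp genes were co-localized.

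**Figure D5:**
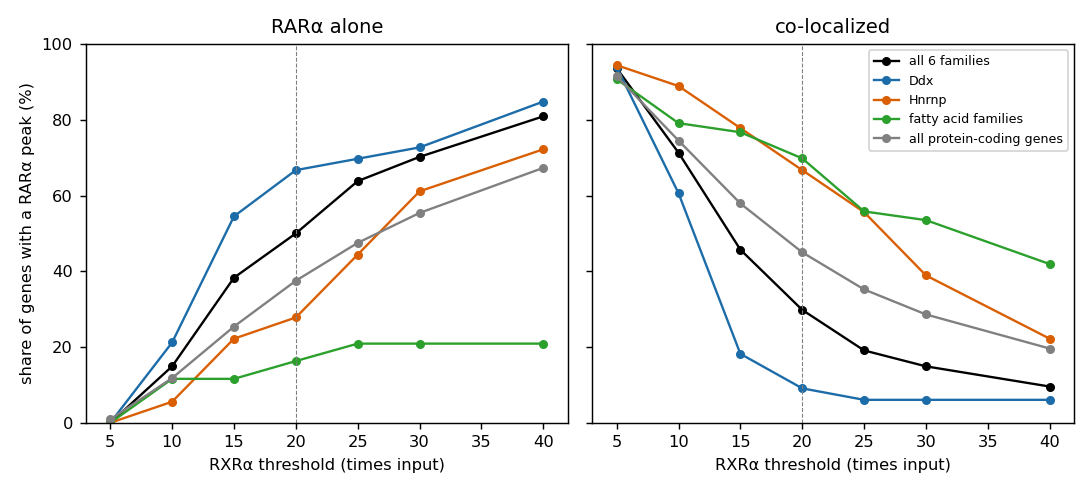
Share of RARα-bound genes (%) that were bound by RARα alone (left) or co-localized (right) against the RXRα threshold (x, times input), for all members, Ddx, Hnrnp, fatty acid families and all protein-coding genes, with the main threshold of 20 dashed. At 10 times input the members fall to 14.9% bound by RARα alone, and the co-localized share of Ddx is below that of Hnrnp at 10 times input and at each higher threshold.

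RARα sat close to the TSS of the members. The strongest peak was within 1 kb in 79 of the 94 (84.0%), against 66.8% of all RARα-bound genes. Among those 79, RARα alone took 49.4% and co-localization 29.1%, against 36.9% and 45.8% of all genes with such a peak. The class still counted RXRα regions anywhere within 10 kb, and distances within 1 kb were not matched. The summit of the strongest peak lay in an untranslated region in 43 members, outside the gene in 38, in an intron in 7 and in a coding exon in 6. Another gene started within 1 kb on the opposite strand in 28 of the 94 (29.8%), against 18% of all RARα-bound genes, and in 12 members the strongest peak was nearest to a start other than their own. RXRα regions were less tied to the TSS, with the strongest within 1 kb in 17 of the 48 members that had one (35.4%, against 34.4% of all genes with a region) and 5 to 10 kb away in another 17. In the 19 members with both apart, the strongest region lay 172 to 9203 bp from the strongest RARα summit, with a median of 4153 bp.

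Counted by peak, 188 RARα peaks lay within 10 kb of members, and 40 of them (21.3%) were co-localized, against 33.1% of 18093 peaks near all genes. By subfamily this share was 41.7% in Sf3, 29.8% in Hnrnp, 25% in Srsf, 23.1% in Snrp, 13.6% in Prpf and 11.5% in Ddx. Peaks of 1 gene are not independent of each other.

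The DNA at the RARα summits of the members held the ETS motif CCGGAAG within 100 bp in 24.5% of the 94 strongest peaks, against 13.9% over all RARα-bound genes. With summits within 1 kb of the TSS the shares were 25.3% and 16.4%. The YY1 motif AAGATGGCG was found in 6.38%, against 3.36%. AGGTCA was found in 7.45% of the members and 8.62% of all, and within the members in 5 of the 28 co-localized (17.9%) and 1 of the 47 bound by RARα alone (2.13%). Over all genes these shares were 10.9% and 6.7%. CCAAT, bound by NFY, was at 23.4% and 23.2%, GGGCGG, bound by SP1, at 37.2% and 47.3%, TGACGTCA, the CRE, at 2.13% and 1.97%, and the NRF1 motif at 0 of 94 and 1.33%. Direct repeats of AGGTCA or GGGTCA with 1 to 5 bases between were found at 0 of 94 and 0.188%. All motifs were searched on both strands, and none contains another, except that AGGTCA can be part of a direct repeat. The median G and C content of the windows was 63.7% in members and in all genes, and the ratio of observed to possible CpG was 0.963 and 0.803.

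Under RXRα regions near members the core was more frequent away from RARα. AGGTCA lay in 19 of 43 regions without an overlapping RARα peak (44.2%, against 34.9% near all genes) and in 7 of 39 with one (17.9%, against 22.4%). Direct repeats were in 0 of 82 regions near members and in 2.64% near all genes. Here a copy of the repeat could be AGGTCA or GGGTCA, and also AGTTCA or GGTTCA. A match of letters is a description and not a binding site.

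Other spliceosome genes outside the 6 symbol families, such as the Lsm, U2af and Snrnp genes, gave 50 RARα-bound genes of 53 found. Of these 22 (44.0%) were bound by RARα alone and 23 (46.0%) were co-localized, so the low co-localized share of the members was not seen in this list. In protein transport families 141 of 166 genes were RARα-bound (84.9%), and RARα alone and co-localization each took 57 of these 141 (40.4%). With 94.3% RARα-bound among the other spliceosome genes, a high share of RARα-bound genes was thus not particular to the members. Fatty acid families were the far end of the range, with 43 of 54 RARα-bound, 30 of these co-localized (69.8%, 54.9 to 81.4) and 7 bound by RARα alone (16.3%, 8.12 to 30). At 20 times input the Hnrnp share of 66.7% co-localized genes was near that of the fatty acid families, but at 30 times input it was 38.9% against 53.5%, by peak 29.8% against 48.2%, and the median highest RXRα ratio was 27.3 against 61.9. The Ddx share of 9.09% lay below that of each of these 3 lists. As a check of the tissue, 5 of 6 hepatocyte marker genes were co-localized and the other had an RXRα region only. Of 6 markers of other liver cells none was co-localized, 3 were RARα-bound and 3 had neither receptor. Over all protein-coding genes 23.5% were co-localized, 52.2% were RARα-bound and 9083 of 22367 had neither. The shares of 3 of 6 in the second list were thus near the background.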

How the data were processed

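RXRα, input and RARα libraries from mouse liver were analysed, with 1 library each. The deposited RXRα and input signal is coverage by extended reads, in whole numbers per 32 bp bin, and 1 read covers 5 bins. The deposited RARα list gives 143280 peaks, each with a summit, a score and a false discovery rate in percent. The list does not say what its score measures. The submitters' processing notes name CASAVA 1.4, Bowtie and MACS. The paper's methods name mm10 for alignment and mm9 for annotation. The file header names mm9, and 0 peaks lay beyond a chromosome end of NCBI37, so that build was used with GENCODE M1.

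Peaks with a score above 20 (32946 peaks) and the limits of 10 kb, 20 times input and 25% overlap were taken from the study's methods. The study called peaks with MACS and compared peak widths. Here 20 times input was applied to single 32 bp bins of RXRα, and 25% to the narrower interval. The classes are therefore not those of the study. The tracks were put on an equal mean, bins within 200 bp were joined (42117 regions), and a region counted by its midpoint. Every gene start within the distance was counted. Intervals are Wilson intervals at 95%. The percent column was used only in an alternative setting.

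The members, lists and comparisons were chosen with earlier results of these data known. All members bound by RARα alone or without a RARα peak were named. Values were given for the members with the highest score and RXRα ratio of each subfamily, the 12 RARα-alone members with the highest scores, the 12 co-localized members with the highest enrichment, those nearest to a threshold, and examples from the role lists. The values of 1 member named by this rule are not reported here. The 8 pairs of relatives were chosen after classes were seen. Sf3b14, Ddx53 and 1 other spliceosome symbol had no match in the annotation. No test was made, since genes of 1 library are not replicates. The steps were tested on simulated data. Tools were Python 3.11.15, matplotlib 3.10.9, scipy 1.17.1, pandas 2.3.3 and numpy 2.4.6. Expression was not analysed here.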

Additional observations from a re-analysis of the deposited data

Results flagged for a closer look

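Of the 6 members without a RARα peak above the score threshold, 5 had a listed peak of lower score within 10 kb, with scores of 12 (Ddx58), 13 (Ddx43), 18 (Ddx60), 19 (Ddx18) and 19 (Ddx27). These lower peaks took no part in the comparisons. Snrpn had none at any score.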

How the results depend on the processing

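Within 1 kb of the TSS, 23 members had an RXRα region and 18 were co-localized. With a RARα score above 50, 50 members were RARα-bound, 15 co-localized and 20 bound by RARα alone. At 10 times input 84 had an RXRα region, 67 were co-localized and 14 were bound by RARα alone, at 15 times input 43 were co-localized, and at 30 times input 29 had a region and 14 were co-localized. With the genome mean as the only input, 61 were co-localized and 25 bound by RARα alone. Of the settings chosen after seeing the data, 5 times input gave 99 members with a region, 88 co-localized and 0 bound by RARα alone, and 25 times input gave 18 co-localized. Merging abutting peaks, leaving out members whose strongest peak is nearest to another gene, also chosen then, and the other settings left each of the 4 counts within 1.5 times. By subfamily, the Snrp count bound by RARα alone was 3 and became 9 within 1 kb, 6 with the nearest gene start only, 6 at 30 times input, and 0 with a score above 50 or at 10 times input. The Hnrnp count was 5 and became 8 within 1 kb, 11 at 30 times input and 1 at 10 times input. Sf3 went from 3 to 6 at 30 times input, and Ddx from 22 to 8 with a score above 50 and 7 at 10 times input. With a score above 50 Srsf went from 6 to 3, Prpf from 8 to 4 and Sf3 from 3 to 1, and at 10 times input Srsf went to 3 and Prpf to 1. The members' share bound by RARα alone was above that of all genes in 17 of 18 settings, several of which left the classes nearly as they were, the exception being 5 times input. At 10 M reads a bin without input needs 13 reads to pass, so classes near the threshold turn on single reads. No paired analysis was possible because each group has 1 library.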
